A study of Mus musculus with 48 samples.

Results

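The chemokine ligands are small secreted proteins, named after the spacing of their first cysteines as CC, CXC, C and CX3C ligands, that draw leukocytes along a gradient through receptors of the 7-transmembrane family. The genes described here were chosen by symbol (Ccl, Cxcl, Xcl or Cx3cl, digits and an optional letter) together with the cytokines Il6, Lif and Csf1, which are secreted by the same stromal cells. The rule found 41 members among the 55450 genes of the deposited tables: 23 CC ligands, 13 CXC ligands, 1 C ligand, 1 CX3C ligand and the 3 cytokines. The platelet ligands Pf4 and Ppbp do not carry such symbols and were not members.

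The RNA-seq libraries came from C57BL/6 mice, either wild type (WT) or with both HMGN1 and HMGN2, proteins that bind nucleosomes, knocked out (Hmgn1-/- and Hmgn2-/-, DKO). White preadipocytes of inguinal fat, taken from mice 8 to 12 weeks old and grown on collagen, were sampled at days 0, 3, 6 and 9 of conversion to brown-like adipocytes. Mouse embryonic fibroblasts (MEFs) were sampled at days 0, 4, 8 and 12 of conversion to adipocytes. Each of the 16 combinations of cell type, genotype and day had 3 libraries, 48 in all. After confluence both genotypes received the same differentiation medium (0.5 µg/ml insulin, 5 µM dexamethasone, 0.5 mM IBMX, 1 nM T3 and 1 µM rosiglitazone), for 4 days in preadipocytes and 8 days in MEFs, and then insulin and T3 alone. Day 3 cells had therefore been in the full medium, with the glucocorticoid dexamethasone, whereas day 6 and day 9 preadipocytes and day 12 MEFs were sampled after its withdrawal. The medium and the day of differentiation therefore cannot be told apart. The preadipocytes were a primary digest of fat and the MEFs a primary culture of embryos, and neither was sorted.

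Levels are given as CPM, counts in proportion to library size after TMM scaling over all 48 libraries, in the order of replicates 1, 2 and 3. A gene was called where edgeR's quasi-likelihood test gave a Benjamini-Hochberg adjusted p under 0.05 over all tested genes together with a fold change of at least 1.5. Libraries held 18962481 to 36006679 counts. The labels were checked on the deleted genes. Hmgn2 stood at 34.6 to 189 CPM in WT libraries and at 0 to 0.372 CPM in DKO libraries. Hmgn1 stood at 81.9 to 208 CPM in WT and still at 62.5 to 112 CPM in DKO. In 44 libraries the highest correlation with a library of the same group was 0.695 to 0.974. In 4 MEF libraries (DKO day 0 replicate 2, WT day 4 replicate 1, WT day 8 replicate 2 and DKO day 8 replicate 3) it was 0.108 to 0.588, and the last 2 of these correlated best with each other (0.782). MEF counts of calls, and the fold changes between days that are printed, are therefore also given without them. No share of all genes is given beside the counts without them. The 10 fixed markers of preadipocytes and fibroblasts, such as Pdgfra and Col1a1, summed to 22603 to 24050.0 CPM in WT preadipocytes at day 0. The 15 markers of macrophages and monocytes, which include Lyz2, Csf1r and the complement genes C1qa, C1qb and C1qc, summed to 167 to 588 CPM in the same libraries and 82.9 to 318 CPM at day 3. At day 6 they summed to 8811 to 14459 CPM and at day 9 to 4485 to 9080.1 CPM. In DKO preadipocytes the sums were 47.9 to 441, 73.7 to 277, 2964 to 7212 and 1933 to 4593 CPM at days 0, 3, 6 and 9. MEFs held 4010 to 9906 CPM of these markers throughout. The 6 T cell markers reached at most 0.245 CPM in any library. In such bulk RNA, fewer cells of a type and less RNA per cell cannot be told apart.

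A total of 20 members reached a mean of 5 CPM in at least 1 group. Per kilobase of exon, the leading members of WT preadipocytes at day 0 were Cxcl14, at 326 CPM per kb, followed by Ccl7 at 285, Csf1 at 269, Ccl8 at 187 and Ccl2 at 173. By day 6 the order was led by Ccl6 at 100 CPM per kb, Cxcl13 at 70.0 and Ccl9 at 63.9, and by day 9 by Csf1 at 65.3. WT MEFs at day 0 were led by Csf1 and Cxcl12, at 42.5 and 41.1 CPM per kb. The 41 members together summed to 3501 CPM in WT preadipocytes at day 0 and to 697 CPM at day 9, while in WT MEFs the sum lay between 627 and 815 CPM on every day. Csf1 alone made up 40.6% of the sum in WT preadipocytes at day 0.

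The other 21 members stayed under 5 CPM in every group. Among them Xcl1, Ccl26 and Ccl27b had 0 counts in all 48 libraries and 8 more had between 1 and 100 counts in all libraries together. These 11 members passed the filter on low counts in none of the 28 comparisons. Of the other 10, Cxcl2 reached the highest group mean, 4.93 CPM. All 30 members that were tested at all were called in at least 1 comparison. No such share is given for all genes, so this is not shown to be particular to the members. In DKO preadipocytes from day 3 to day 6 alone, 7988 of 16138 genes were called. Ccl21a and Ccl21b, and Ccl27a and Ccl27b, are near-identical gene copies whose reads the counting could share between them, so their values are uncertain.

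**Figure D1:**
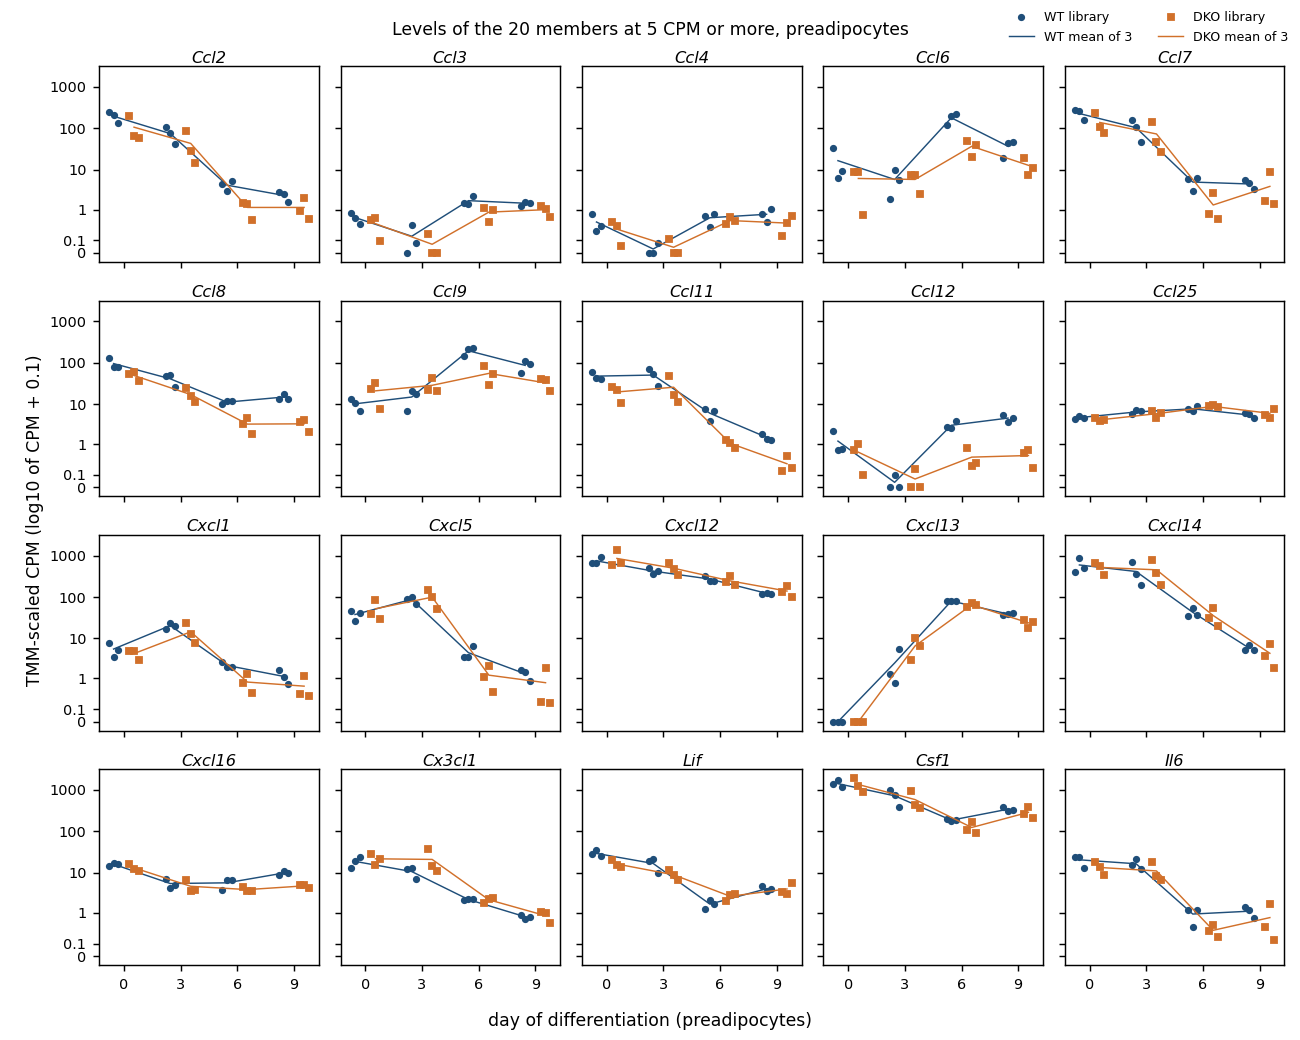
TMM-scaled CPM (log10 of CPM + 0.1) of the 20 members that reached 5 CPM, by day, in each WT (circles) and DKO (squares) preadipocyte library, with lines through the means of 3. Csf1, Cxcl12, Cxcl14, Ccl2 and Ccl7 start high and fall, whereas Ccl6, Ccl9 and Cxcl13 are highest at day 6, with DKO below WT for Ccl6 and Ccl9.

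Promoter sequence was at hand from RefSeq (build GRCm38.p6, the build of the files) for 30 members. The 250 bases before the start were searched on both strands for a kappaB motif of NF-kappaB (GGGA, 3 free bases and TCC), the AP-1 motif (TGANTCA) and the interferon-stimulated response element, ISRE (GAAA, 2 free bases and GAAA). The kappaB letters were found in 8 of the 30 members, beside 3.86% of 32851 promoter windows of the same length. AP-1 letters were found in 6 (6.75% of all windows) and ISRE letters in 3 (2.98%). A member was counted where any of its windows held the letters, and Ccl25, Ccl27a and Ccl27b had more than 1 window. Counts per member and shares per window are therefore not quite alike. The near-identical copies Ccl27a and Ccl27b are both among the 6. Of the 14 members at 5 CPM or more with an entry, 3 held kappaB letters (Cxcl1, Csf1 and Il6), 3 AP-1 letters (Lif, Il6 and Ccl9) and 1 ISRE letters (Cxcl14). Cxcl1, Cxcl2 and Cxcl3, neighbours on chromosome 5, shared the same 10 letters GGGAATTTCC, at 71, 97 and 73 bases before the start. The windows shown are those of the neutrophil ligand Cxcl1, the macrophage growth factor Csf1 and the stromal ligand Cxcl14, as examples that hold kappaB or ISRE letters, and of the neighbouring monocyte ligands Ccl12 and Ccl8, which were lower in DKO on both late days of preadipocytes. Matched letters are in capitals, and the kappaB match of Cxcl1 and of Csf1 was found on both strands with the 2 matches overlapping, so that their capitals form 1 block.
Cxcl1, chr5:90890995-90891244, plus strand: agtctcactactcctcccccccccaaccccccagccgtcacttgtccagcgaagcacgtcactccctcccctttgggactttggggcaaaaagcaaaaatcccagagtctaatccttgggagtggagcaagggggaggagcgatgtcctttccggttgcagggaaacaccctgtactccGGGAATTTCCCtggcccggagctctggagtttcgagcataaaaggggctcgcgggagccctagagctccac
Csf1, chr3:107760470-107760719, minus strand: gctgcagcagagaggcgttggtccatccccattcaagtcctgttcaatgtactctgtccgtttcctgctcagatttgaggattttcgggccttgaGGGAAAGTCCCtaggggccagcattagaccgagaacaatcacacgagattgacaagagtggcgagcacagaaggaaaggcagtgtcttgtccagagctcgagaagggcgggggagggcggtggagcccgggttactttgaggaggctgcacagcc
Cxcl14, chr13:56296552-56296801, minus strand: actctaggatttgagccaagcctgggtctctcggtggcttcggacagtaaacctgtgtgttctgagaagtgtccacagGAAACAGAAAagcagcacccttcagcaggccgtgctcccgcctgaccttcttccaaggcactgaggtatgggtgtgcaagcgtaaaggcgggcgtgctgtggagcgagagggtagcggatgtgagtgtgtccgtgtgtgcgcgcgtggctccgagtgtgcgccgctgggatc
Ccl12, chr11:82101595-82101844, plus strand: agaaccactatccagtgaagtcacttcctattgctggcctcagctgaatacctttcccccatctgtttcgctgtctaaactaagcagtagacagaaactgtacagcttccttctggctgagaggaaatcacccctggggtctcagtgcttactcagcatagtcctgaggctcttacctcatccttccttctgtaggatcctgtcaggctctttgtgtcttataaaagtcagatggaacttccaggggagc
Ccl8, chr11:82114935-82115184, plus strand: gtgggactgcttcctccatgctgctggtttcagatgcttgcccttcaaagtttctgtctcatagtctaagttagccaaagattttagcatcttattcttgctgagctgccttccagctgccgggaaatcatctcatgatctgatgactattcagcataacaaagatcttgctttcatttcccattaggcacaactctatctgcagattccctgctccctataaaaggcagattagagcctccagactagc
No kappaB, AP-1 or ISRE letters lay in the windows of Ccl12 and Ccl8, nor in those of Cxcl13, Ccl3, Ccl6, Cxcl12, Cx3cl1 and Ccl25. A match describes these letters only.

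To follow the ligands through browning, adjacent days were compared within each genotype. In WT preadipocytes 5 members rose and 12 fell from day 0 to day 3, of 29 tested, beside 11.1% of all 16188 tested genes that rose and 13.6% that fell. From day 3 to day 6, 9 members rose and 14 fell (22.5% and 24% of all genes). From day 6 to day 9, 3 rose and 8 fell (8.8% and 5.22%). The median log2 change of the tested members was -0.58, -0.57 and -0.81 in these 3 steps, with that of all genes at 0.0063, 0.00027 and -0.0091. With members whose libraries of 1 day were all at 0 counts set to their lower bound, the second of these medians was -0.49 and the others were unchanged. In DKO preadipocytes 3 members rose and 6 fell from day 0 to day 3 (13% and 14% of all genes), 9 rose and 15 fell from day 3 to day 6 (23.7% and 25.8%), and 3 fell from day 6 to day 9 (2.99%). The genotypes shared 20 called members between day 3 and day 6, which is 87.0% of the WT calls and 83.3% of the DKO calls, and all 20 moved in the same direction. In this step 7541 of 16188 genes were called in WT and 7988 of 16138 in DKO. Here and below, calls in common were counted for members alone, without the share over all genes. They are therefore not shown to be particular to the members. The steps between days share the libraries of the middle days. With only the libraries of both days in the filter and the fit, 10 of 25 members tested, in place of 17 of 29, were called in WT between day 0 and day 3. Without DKO day 0 replicate 1 or DKO day 3 replicate 3, 5 in place of 9 were called in DKO between these days. Between day 6 and day 9, 11 WT members were called, and 7 without WT day 6 replicate 1 or WT day 9 replicate 2 and 6 without WT day 9 replicate 3.

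**Figure D2:**
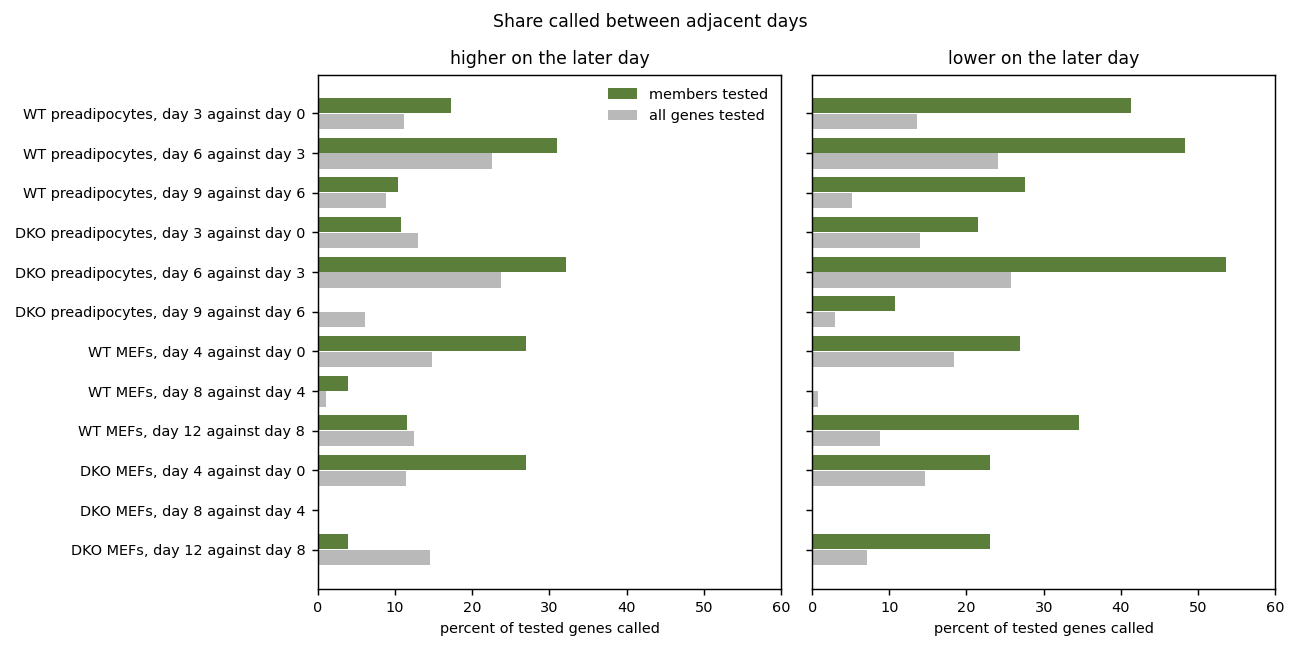
Percent of tested genes called higher (left) or lower (right) on the later of 2 adjacent days, for the members (green bars) and for all tested genes (grey bars), in the 12 comparisons within a cell type and genotype. In WT preadipocytes from day 3 to day 6, 14 of 29 members were lower beside 24% of all genes.

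The monocyte ligands Ccl2 and Ccl7, adjacent genes on chromosome 11 that act through the receptor Ccr2, fell in WT on the way to day 3 and fell further to day 6. Ccl2 stood at 242, 209 and 138 CPM in WT libraries at day 0, 106, 77.7 and 41.0 at day 3, 4.43, 2.94 and 5.22 at day 6 and 2.80, 2.59 and 1.63 at day 9. Libraries of adjacent days did not overlap, and the step from day 3 to day 6 was a 17.1-fold fall (log2 fold change -4.10 ± 0.40 with an adjusted p of 1.07e-05). Ccl7 went from 273, 255 and 156 CPM at day 0 to 158, 107 and 46.5 at day 3 and 5.90, 2.98 and 6.14 at day 6 (log2 fold change -4.31 ± 0.49 with an adjusted p of 3.03e-05 for the last step). In DKO libraries Ccl2 stood at 197, 64.1 and 59.5 CPM at day 0 and 1.52, 1.41 and 0.520 at day 6, and it fell between day 3 and day 6 as well (log2 fold change -5.21 ± 0.87 with an adjusted p of 3.72e-04).

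Ccl11, the eosinophil attractant eotaxin, and Ccl8, a monocyte ligand, lie in the same gene cluster. Ccl11 was at 59.4, 43.7 and 39.8 CPM in WT at day 0, 70.9, 53.3 and 27.3 at day 3, 7.54, 3.81 and 6.62 at day 6 and 1.84, 1.39 and 1.27 at day 9. The libraries of days 0 and 3 overlapped, and it fell between day 3 and day 6 (log2 fold change -3.01 ± 0.37 with an adjusted p of 4.53e-05) and again to day 9 (log2 fold change -2.00 ± 0.45 with an adjusted p of 0.00851). Ccl8 fell from 132, 77.1 and 77.8 CPM at day 0 to 47.4, 50.02 and 25.5 at day 3 (log2 fold change -1.28 ± 0.27 with an adjusted p of 0.00402) and 10.04, 11.7 and 11.8 at day 6, and stood at 13.5, 18.0 and 12.99 at day 9.

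Of the ligands of neutrophils that carry the ELR motif and act through Cxcr2, Cxcl1, Cxcl2 and Cxcl5 rose in WT to day 3 and fell to day 6. Cxcl1 rose from 7.74, 3.49 and 5.35 CPM in WT at day 0 to 17.2, 23.9 and 20.6 at day 3 (log2 fold change 1.83 ± 0.28 with an adjusted p of 3.56e-04), with no overlap of the libraries, and fell to 2.62, 1.94 and 1.93 at day 6 (log2 fold change -3.18 ± 0.30 with an adjusted p of 2.96e-06). Cxcl5 followed the same course, from 46.5, 26.9 and 40.8 CPM to 91.9, 104 and 69.8 (log2 fold change 1.16 ± 0.26 with an adjusted p of 0.00543) and then 3.52, 3.43 and 6.53 (log2 fold change -4.24 ± 0.31 with an adjusted p of 9.88e-07). Cxcl2 was at 0.308, 0.233 and 0.0991 CPM at day 0 and 1.55, 3.84 and 2.85 at day 3 (log2 fold change 3.58 ± 0.46 with an adjusted p of 1.20e-04). In DKO preadipocytes Cxcl1 rose (log2 fold change 1.72 ± 0.51 with an adjusted p of 0.0188) and Cxcl2 rose (log2 fold change 4.28 ± 0.61 with an adjusted p of 3.31e-04) between these days, while Cxcl5 was at 39.99, 87.5 and 29.9 CPM at day 0 and 149.8, 98.1 and 51.8 at day 3, where its libraries overlap and it was not called. All 3 fell between day 3 and day 6 in both genotypes. Among the 16 fixed targets of the glucocorticoid receptor, 14 rose and none fell between day 0 and day 3 in WT, and of the 23 interferon-stimulated genes 16 fell and none rose.

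The homeostatic CXC ligands Cxcl12 and Cxcl14 were the chemokines with the highest CPM at day 0, not corrected for gene length, and fell to day 9. Cxcl12, the ligand of Cxcr4 that retains blood-forming cells in their niche, was at 671, 651 and 919 CPM in WT at day 0, 493, 358 and 419.5 at day 3, 316, 251 and 251 at day 6 and 121, 129 and 120.2 at day 9. It fell between day 0 and day 3 (log2 fold change -0.88 ± 0.15 with an adjusted p of 8.81e-04) and between day 6 and day 9 (log2 fold change -1.15 ± 0.16 with an adjusted p of 3.69e-04). Cxcl14, a ligand of epithelia and stroma, was at 398, 899 and 491 CPM at day 0 and at 5.14, 7.03 and 5.09 CPM at day 9, and it fell in both later steps, with a log2 fold change of -2.89 ± 0.51 in the last (adjusted p = 0.00255). Cxcl16, a membrane-bound ligand of Cxcr6, fell early and rose late. It was at 14.5, 17.4 and 16.7 CPM at day 0, 7.09, 4.22 and 5.15 at day 3 (log2 fold change -1.62 ± 0.23 with an adjusted p of 1.95e-04). It was at 3.77, 6.70 and 6.66 CPM at day 6 and 9.001, 10.8 and 9.88 at day 9, a rise (log2 fold change 0.79 ± 0.23 with an adjusted p of 0.0222). Cx3cl1, fractalkine, the other membrane-bound ligand, went from 12.2, 12.96 and 7.04 CPM at day 3 to 2.13, 2.23 and 2.24 at day 6 (log2 fold change -2.22 ± 0.27 with an adjusted p of 1.76e-05) and 0.894, 0.694 and 0.764 at day 9.

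Cxcl13, the B cell attractant of lymphoid stroma, had 0 counts in all 6 preadipocyte libraries of day 0, in both genotypes. At day 3 it stood at 1.31, 0.768 and 5.41 CPM in WT and 3.05, 10.2 and 6.47 CPM in DKO. Set against a floor of 3 counts per library, this is at least 17.8-fold higher in WT and at least 57.8-fold higher in DKO. At day 6 Cxcl13 reached 81.0, 81.1 and 79.5 CPM in WT and 59.3, 73.2 and 64.0 in DKO, and at day 9 36.2, 39.3 and 41.8 and 28.2, 18.2 and 25.4. The rise from day 3 to day 6 was called in both genotypes. The fall to day 9 was called in DKO (log2 fold change -1.45 ± 0.35 with an adjusted p of 0.0254). That call was kept under 5 other settings and lost under 7. In WT every library of day 9 also lay below every library of day 6, without a call. The DKO effect was not found to differ between days 6 and 9 for any member.

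The CC ligands that macrophages make, Ccl6 and Ccl9, rose at day 6 in WT. Ccl9 was at 6.75, 20.4 and 17.5 CPM in WT at day 3 and at 142, 212 and 229.9 at day 6 (log2 fold change 3.77 ± 0.43 with an adjusted p of 3.19e-05), and at 55.7, 113 and 91.1 at day 9. In DKO, where it stood at 22.4, 42.8 and 20.5 CPM at day 3 and 83.1, 29.6 and 53.5 at day 6, the step was not called. Ccl6 was at 34.0, 6.28 and 9.56 CPM at day 0, 1.89, 9.98 and 5.48 at day 3, 118, 196 and 227 at day 6 and 19.3, 44.1 and 47.7 at day 9, and its rise to day 6 was called in both genotypes. Ccl12, a monocyte ligand, was at 2.15, 0.698 and 0.743 CPM at day 0, had 2 counts over the 3 WT libraries of day 3, and stood at 2.79, 2.52 and 3.77 CPM at day 6 and 5.42, 3.66 and 4.59 at day 9. Ccl3 and Ccl4, inflammatory ligands of macrophages, were scarce. Ccl3 was at 0, 0.384 and 0.0741 CPM at day 3 and 1.48, 1.45 and 2.24 at day 6, Ccl4 at 0, 0 and 0.0741 and 0.697, 0.331 and 0.789, and both were called higher at day 6 in both genotypes. All 15 macrophage markers rose from day 3 to day 6 in WT and 14 in DKO, with median log2 changes of 6.08 and 4.83. Over the same step the preadipocyte and fibroblast markers went from 23689 to 40664 to 10923 to 13196 CPM in WT, with 8 of 10 called lower, and from 28093 to 39307 to 3886 to 5552 CPM in DKO, with 7 lower. The adipocyte markers went from 870.3 to 3402 to 27113 to 32326 CPM in WT and from 4714 to 6771 to 35627 to 44115 CPM in DKO, with all 10 called higher in both. The part of these 3 lists in the rises of Ccl6, Ccl9 and Ccl12 and in the falls of the other members was not tested.

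The 3 cytokines fell together between day 3 and day 6. Csf1, the growth factor of macrophages, was at 1376, 1735 and 1153 CPM in WT at day 0, 1005, 776 and 391 at day 3 and 196, 179.6 and 187 at day 6, then rose to 387, 319 and 328 at day 9 (log2 fold change 0.88 ± 0.28 with an adjusted p of 0.0426). Il6, the cytokine of the acute phase, went from 15.3, 22.3 and 12.3 CPM at day 3 to 1.19, 0.414 and 1.183 at day 6 (log2 fold change -4.09 ± 0.42 with an adjusted p of 8.53e-06). Lif, which signals with Il6 through the shared receptor Il6st, went from 19.4, 21.5 and 9.74 CPM to 1.23, 2.11 and 1.71 (log2 fold change -3.26 ± 0.31 with an adjusted p of 4.25e-06) and rose to 4.70, 3.61 and 3.97 at day 9 (log2 fold change 1.27 ± 0.32 with an adjusted p of 0.0137). In the DKO libraries Il6 also fell between day 3 and day 6 (log2 fold change -5.10 ± 0.77 with an adjusted p of 1.89e-04), as did Lif (log2 fold change -1.71 ± 0.29 with an adjusted p of 3.91e-04).

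Several members under 5 CPM were called between days too. The neutrophil ligand Cxcl3 was at 0.616, 0.698 and 0.743 CPM in WT at day 0 and 1.07, 1.78 and 0.518 at day 3, where the libraries overlapped and it was not called. It had 2 counts in all at day 6 and was called lower, and in DKO, with 0 counts at day 6, it was at least 2.99-fold lower than at day 3. Ccl19, which guides T cells and dendritic cells through Ccr7, stood at 0.861, 0.786 and 0.877 CPM in WT at day 6 and 0.280, 0.278 and 0.204 at day 9 (log2 fold change -1.71 ± 0.42 with an adjusted p of 0.0107), and its rise to day 6 was called in both genotypes. Ccl28 was also called higher at day 6 in both genotypes. Ccl20, the ligand of Ccr6, fell between day 0 and day 3 in WT, from 1.14, 1.16 and 0.545 to 0.194, 0.0960 and 0.0741 CPM (log2 fold change -3.01 ± 0.56 with an adjusted p of 0.00348). Of the interferon-induced ligands, Cxcl9 was called higher at day 6 in WT and Cxcl10 lower at day 6 in DKO, and neither was called in both. Ccl27a was called at day 6 only in DKO, as was Ccl25, which is not among the members under 5 CPM, and both were higher. Ccl25 went from 6.80, 4.71 and 6.01 CPM at day 3 to 8.76, 9.33 and 8.32 at day 6 in DKO. Whether the change of Ccl27a or Ccl25 differed between the genotypes was tested with the other members and not called.

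Undifferentiated WT preadipocytes and WT MEFs were compared at day 0. Of 26 members tested, 12 were higher in preadipocytes and 6 in MEFs, beside 16.9% and 18.5% of all 16581 genes. Il6 was at 24.4, 24.9 and 12.9 CPM in preadipocytes and 0.124, 0.101 and 0.256 in MEFs (log2 fold change 6.90 ± 0.45 with an adjusted p of 2.02e-06). Cxcl14 was at 398, 899 and 491 CPM beside 5.62, 8.44 and 5.60 (log2 fold change 6.41 ± 0.45 with an adjusted p of 3.49e-06). Ccl11 was at 59.4, 43.7 and 39.8 CPM beside 0.279, 0.439 and 0.439 (log2 fold change 6.84 ± 0.49 with an adjusted p of 4.00e-06). Csf1 stood at 1376, 1735 and 1153 CPM in preadipocytes and 215, 224 and 234 in MEFs (log2 fold change 2.56 ± 0.28 with an adjusted p of 4.88e-05). Ccl8, Ccl7, Ccl2, Cxcl1, Cxcl5, Cxcl3, Lif and Cxcl12 were also higher in preadipocytes. For Cxcl3, with 0 counts in the WT MEFs, the difference was at least 6.76-fold, and for Cxcl15, with 0 counts in the WT preadipocytes, at least 6.42-fold the other way, both against a floor of 3 counts per library. The 6 members higher in MEFs were Ccl3, Ccl4, Ccl9, Ccl12, Cxcl16 and Cxcl15. Ccl3 was at 10.9, 11.04 and 10.02 CPM in MEFs beside 0.836, 0.605 and 0.396 (log2 fold change -4.20 ± 0.44 with an adjusted p of 3.40e-05), and Ccl9 at 91.4, 57.9 and 86.0 beside 13.2, 10.5 and 6.79. Macrophage markers summed to 7971 to 9906 CPM in these MEF libraries and 167 to 588 CPM in the preadipocyte libraries. All 14 tested markers were called higher in MEFs, and their part in the difference was not tested. Cell type, culture and deposited table cannot be told apart in this comparison.

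**Figure D3:**
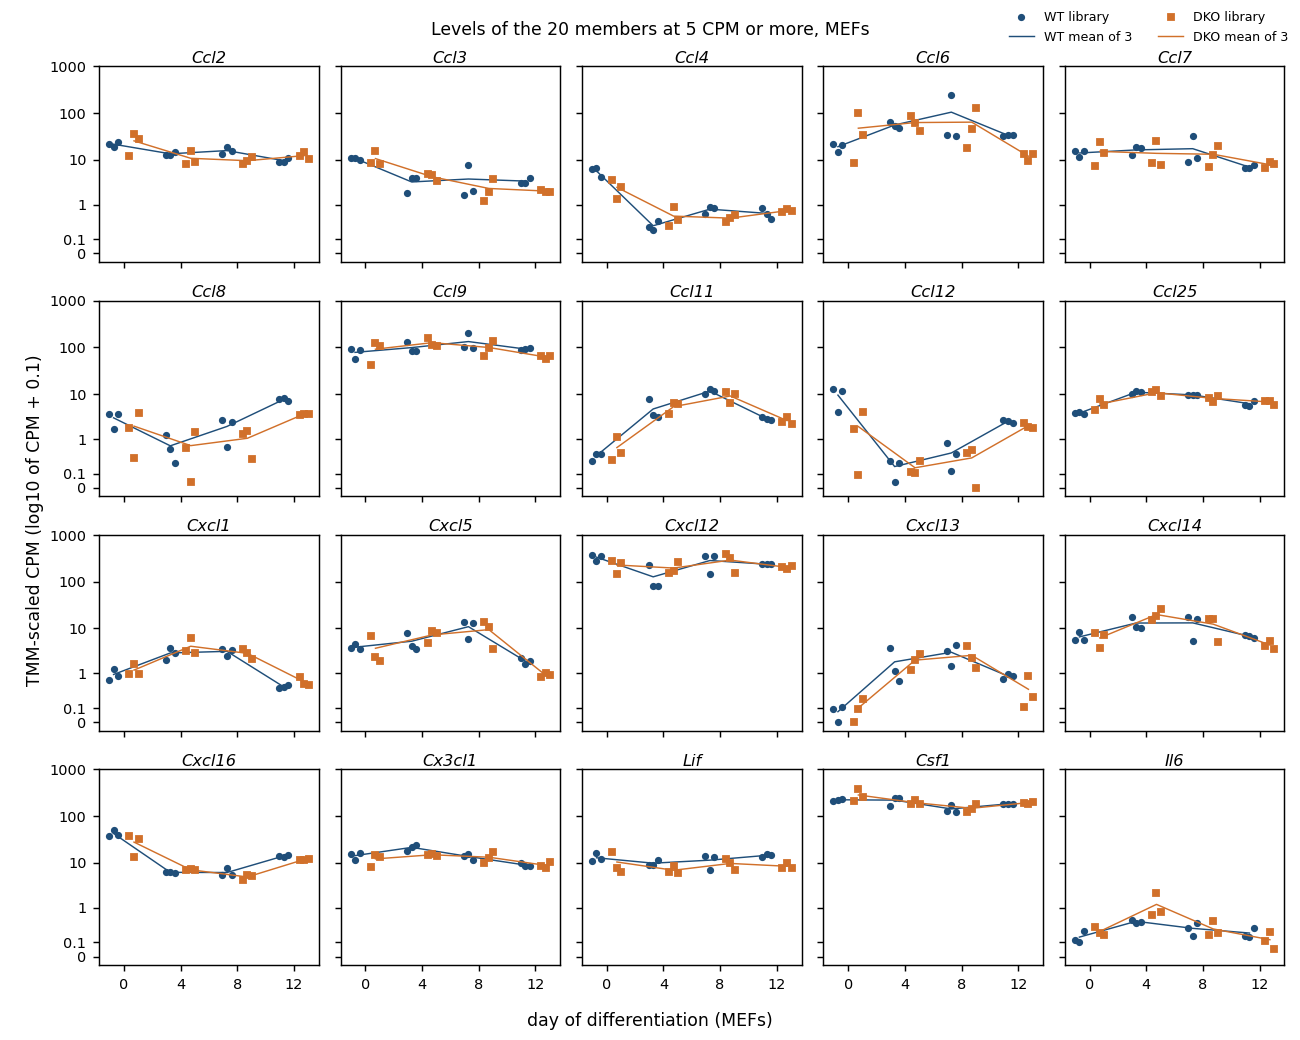
TMM-scaled CPM (log10 of CPM + 0.1) of the same 20 members, by day, in each WT (circles) and DKO (squares) MEF library, with lines through the means of 3. At day 8 WT replicate 2 and DKO replicate 3 lie away from their groups, with Ccl6 at 249 and 128 CPM beside 33.2, 31.8, 18.1 and 45.3 in the others.

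In WT MEFs 7 members rose and 7 fell from day 0 to day 4, of 26 tested (14.8% and 18.4% of all genes). In DKO MEFs 7 rose and 6 fell (11.4% and 14.7%), or 8 in all without DKO day 4 replicate 1. The genotypes shared 10 of these calls, 71.4% of the WT and 76.9% of the DKO calls, all in the same direction. Ccl11 rose from 0.279, 0.439 and 0.439 CPM to 7.67, 3.44 and 3.12 in WT (log2 fold change 3.52 ± 0.37 with an adjusted p of 1.52e-05), with every day 4 library above every day 0 library, and fell again from day 8 to day 12 (log2 fold change -1.98 ± 0.30 with an adjusted p of 4.20e-04). Ccl25, a ligand of gut-homing lymphocytes, rose from 3.79, 4.05 and 3.69 to 10.2, 11.4 and 11.3 CPM (log2 fold change 1.41 ± 0.12 with an adjusted p of 2.41e-06). Cxcl16 fell from 38.5, 50.5 and 38.7 to 6.31, 6.35 and 5.96 CPM (log2 fold change -2.88 ± 0.16 with an adjusted p of 1.47e-07). The macrophage-type ligand Ccl4 fell from 6.14, 6.72 and 4.24 to 0.273, 0.213 and 0.386 CPM (log2 fold change -4.38 ± 0.32 with an adjusted p of 1.12e-06), and no library of day 4 reached those of day 0. Ccl12 fell from 13.1, 3.98 and 11.4 to 0.273, 0.0355 and 0.245 CPM (log2 fold change -5.70 ± 0.65 with an adjusted p of 3.40e-05). The neutrophil ligand Cxcl1 rose as it did in preadipocytes, from 0.714, 1.25 and 0.878 to 2.05, 3.83 and 2.87 CPM (log2 fold change 1.52 ± 0.28 with an adjusted p of 9.22e-04), and was at 3.50, 2.54 and 3.46 at day 8 and 0.441, 0.454 and 0.512 at day 12 (log2 fold change -2.72 ± 0.31 with an adjusted p of 6.18e-05). Of the 15 macrophage markers 12 fell and 1 rose over the same step in WT, beside the falls of Ccl3, Ccl4, Ccl8 and Ccl12. Not all ligands that macrophages make fell with them. Ccl6 went from 21.5, 14.4 and 21.1 CPM to 64.3, 53.3 and 49.0, without a call. Ccl9 went from 91.4, 57.9 and 86.0 CPM to 129, 85.9 and 82.9, also without a call. The part of the markers in these values was not tested.

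The cytokine Csf1, abundant in MEFs, was not called in any step of WT. It was at 215, 224 and 234 CPM in WT at day 0, 167, 245 and 249.7 at day 4, 126, 177 and 125 at day 8 and 183, 180.2 and 187 at day 12. The stromal ligand Cxcl12 fell from 367, 283 and 359 CPM at day 0 to 224, 79.4 and 80.2 at day 4, with WT replicate 1 of day 4, a library that stood apart, between the others and day 0. The macrophage-type ligands that were high in late preadipocytes were present in MEFs from the start, with Ccl6 at 21.5, 14.4 and 21.1 CPM and Ccl9 at 91.4, 57.9 and 86.0 CPM at day 0. Neither was called in any step of WT with all libraries in the fit. Ccl6 was not level: it stood at 64.3, 53.3 and 49.0 CPM at day 4 and 33.2, 249 and 31.8 at day 8. The 249 CPM belongs to replicate 2 of day 8, a library that stood apart. Cxcl13 was called higher at day 4 here as well, from 0.0931, 0 and 0.110 to 3.71, 1.17 and 0.666 CPM, and Il6 from 0.124, 0.101 and 0.256 to 0.519, 0.426 and 0.456. The spread within day 4 was wide for Cxcl13, since replicate 1 held 3.71 CPM.

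The middle step of the MEF series rests on the libraries that stood apart. Between day 4 and day 8, 1 member, Ccl11, rose in WT (log2 fold change 1.28 ± 0.29 with an adjusted p of 0.0439), beside 1.03% of all genes. Without the libraries that stood apart 15 members were called, 8 higher and 7 lower. Without WT day 4 replicate 1 or WT day 8 replicate 2 alone the count was 11 or 12. Without any one of the other 4 WT libraries of these days it was 0. The 1.03% belongs to the fit with all libraries, so the counts of these smaller fits cannot be set against it. In DKO MEFs edgeR called 0 of 26 members between these days (0% of all genes), 4 had an unadjusted p under 0.05, DESeq2 called 0, and without DKO day 8 replicate 3 and DKO day 0 replicate 2 the count was 2. An unadjusted p under 0.05 was found for 1901 of all 16231 genes with all libraries. Cxcl12 shows the spread: WT MEFs held 224, 79.4 and 80.2 CPM at day 4 and 359, 146 and 351 at day 8, and DKO MEFs 156, 171 and 263 and 395, 328 and 151. From day 8 to day 12, 3 members rose and 9 fell in WT (12.5% and 8.73% of all genes), and 1 rose and 6 fell in DKO (14.5% and 7.13%). Without the libraries that stood apart these counts were 12 in WT and 10 in DKO, but Ccl25, Ccl2, Ccl12, Cx3cl1 and Ccl7 were no longer called in WT, nor Cxcl10 in DKO. Those from day 0 to day 4 were 18 and 13, with Csf1 no longer called in DKO. The DKO count was 4 without DKO day 12 replicate 1 or replicate 3, and the genotypes shared 5 of these calls (41.7% of the WT and 71.4% of the DKO calls). Cxcl5 fell from 13.6, 5.84 and 13.2 to 2.21, 1.66 and 1.93 CPM in WT (log2 fold change -2.48 ± 0.37 with an adjusted p of 3.88e-04) and from 14.04, 10.6 and 3.56 to 0.821, 1.00 and 0.907 in DKO (log2 fold change -3.23 ± 0.60 with an adjusted p of 0.00281). Cxcl16 rose in both, in WT from 5.33, 7.75 and 5.38 to 14.2, 13.01 and 14.9 CPM (log2 fold change 1.20 ± 0.16 with an adjusted p of 1.40e-04). Without the libraries that stood apart, the log2 fold changes printed for WT from day 0 to day 4 were 2.995 for Ccl11, 1.47 for Ccl25, -2.88 for Cxcl16, -4.32 for Ccl4, -6.12 for Ccl12 and 1.73 for Cxcl1. That of Ccl11 from day 4 to day 8 was 1.72. From day 8 to day 12 they were -1.81 for Ccl11, -2.79 for Cxcl1, -2.72 for Cxcl5 and 1.47 for Cxcl16 in WT, and -3.63 for Cxcl5 in DKO. Each of these was still called.

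The loss of HMGN1 and HMGN2 was then examined on each day. In preadipocytes at day 0, edgeR called 0 of 23 members (0.218% of all 15123 genes), and limma-voom called 0. At an unadjusted p under 0.05 by edgeR stood 4 members, beside 1188 of all 15123 genes. DESeq2 called 3 members lower in DKO at day 0, Lif, Ccl11 and Ccl8, beside 83 of all 15123 genes. Lif stood at 28.0, 34.9 and 25.9 CPM in WT and 20.2, 15.5 and 13.5 in DKO, without overlap. Ccl11 was at 59.4, 43.7 and 39.8 CPM beside 26.0, 22.3 and 10.9, also without overlap. Ccl8 was at 132, 77.1 and 77.8 CPM beside 52.1, 59.2 and 36.8, again without overlap. Of the 23 members 5 did not overlap at day 0, beside 14.5% of all genes. At day 3 edgeR again called 0 of 23 members (0.337% of all genes), 4 had an unadjusted p under 0.05, limma-voom called 0 and DESeq2 called 1, Ccl8, at 47.4, 50.02 and 25.5 CPM in WT and 24.2, 15.8 and 11.1 in DKO. Over all genes DESeq2 called 133 of 15119 lower in DKO at day 3, and 1838 had an unadjusted p under 0.05 by edgeR. The median log2 difference of the members was -0.38 at day 0 and -0.33 at day 3, with that of all genes at 0.00059 and -0.0059.

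At day 6, in differentiating preadipocytes, 10 of 25 members were lower in DKO and none higher, beside 6.53% of all 14694 genes that were lower. The median log2 difference of the 25 was -0.61, that of all genes -0.013. No overlap between the 3 WT and the 3 DKO libraries was seen for 13 of the 25, beside 42.8% of all genes. The neighbours Ccl2, Ccl7, Ccl11, Ccl12 and Ccl8, ligands of monocytes and eosinophils on chromosome 11, were all among the 10. Ccl11 was at 7.54, 3.81 and 6.62 CPM in WT and 1.27, 1.06 and 0.804 in DKO, a 5.79-fold difference (log2 fold change -2.53 ± 0.31 with an adjusted p of 0.00378). Ccl12 was at 2.79, 2.52 and 3.77 CPM in WT and 0.783, 0.235 and 0.284 in DKO (log2 fold change -2.78 ± 0.41 with an adjusted p of 0.00511). Ccl8 stood at 10.04, 11.7 and 11.8 CPM in WT and 3.28, 4.58 and 1.84 in DKO (log2 fold change -1.82 ± 0.27 with an adjusted p of 0.0058). Every WT library lay above every DKO library for these 3 ligands. They were the members called under all 13 other settings, whose log2 fold changes ran from -2.78 to -2.33 for Ccl11, -3.53 to -2.50 for Ccl12 and -2.13 to -1.54 for Ccl8. Ccl2 was at 4.43, 2.94 and 5.22 CPM in WT and 1.52, 1.41 and 0.520 in DKO (log2 fold change -1.89 ± 0.38 with an adjusted p of 0.0133). Its neighbour Ccl7 stood at 5.90, 2.98 and 6.14 CPM in WT and 0.783, 2.64 and 0.568 in DKO (log2 fold change -1.97 ± 0.57 with an adjusted p of 0.0498).

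The macrophage-type ligands of the second chromosome 11 cluster were lower too. Ccl6 was at 118, 196 and 227 CPM in WT and 50.9, 20.9 and 39.1 in DKO (log2 fold change -2.29 ± 0.41 with an adjusted p of 0.0162). Ccl9 stood at 142, 212 and 229.9 CPM in WT and 83.1, 29.6 and 53.5 in DKO (log2 fold change -1.82 ± 0.41 with an adjusted p of 0.0311). Ccl5, the T cell attractant RANTES of the same cluster, stayed under 1 CPM and was at 0.820, 0.786 and 0.526 CPM in WT and 0.0979, 0.411 and 0.189 in DKO (log2 fold change -1.66 ± 0.47 with an adjusted p of 0.0391). Of the neutrophil ligands, Cxcl1 was at 2.62, 1.94 and 1.93 CPM in WT and 0.734, 1.29 and 0.378 in DKO (log2 fold change -1.48 ± 0.38 with an adjusted p of 0.0291). Cxcl5 stood at 3.52, 3.43 and 6.53 CPM in WT and 1.13, 2.11 and 0.426 in DKO (log2 fold change -1.93 ± 0.51 with an adjusted p of 0.0388). Under the 13 other settings these calls were held less firmly than those of Ccl11, Ccl12 and Ccl8. The call was kept under 4 for Ccl5, 5 for Cxcl5, 6 for Ccl7 and 8 each for Ccl9 and Cxcl1. For Ccl6 it was kept under 9 and for Ccl2 under 11. Cxcl13 passed the adjusted p but not the fold, at 81.0, 81.1 and 79.5 CPM in WT and 59.3, 73.2 and 64.0 in DKO. The abundant stromal ligands Cxcl12 and Cxcl14 and the cytokine Csf1 were not called. Cxcl12 stood at 316, 251 and 251 CPM in WT and 228, 318 and 193 in DKO. Cxcl14 stood at 36.0, 55.6 and 37.2 and 31.6, 55.9 and 20.3 CPM, and Csf1 at 196, 179.6 and 187 and 111, 170.5 and 93.6 CPM. Lif lay the other way without passing the test, at 1.23, 2.11 and 1.71 CPM in WT and 2.01, 2.88 and 3.07 in DKO.

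The summed levels of several marker lists also differed between the genotypes at day 6. The 15 macrophage markers summed to 8811, 14459 and 14382 CPM in WT replicates 1, 2 and 3 at day 6 and to 7212, 2964 and 4993 CPM in the DKO replicates, with a median log2 difference of -1.2. Of the 15, Lyz2 was called lower. Among the DKO libraries, replicate 2 had the lowest sum of these markers and the lowest Ccl6, Ccl9 and Ccl12. The same replicate had the highest Ccl8, Ccl7, Ccl5, Cxcl1 and Cxcl5 of the DKO libraries, while Ccl2 and Ccl11 lay between the other two. The 10 preadipocyte and fibroblast markers summed to 10923 to 13196 CPM in WT and 3886 to 5552 in DKO, and 5 of 9 tested were called lower. The 10 adipocyte markers summed to 27113 to 32326 CPM in WT and 35627 to 44115 in DKO, and 2 were called higher. The part of these markers in the lower ligand levels was not tested. Among the fixed pathway lists, 4 of 20 interferon-stimulated genes were lower (median log2 difference -1.09), 2 of 28 NF-kappaB genes were lower and none higher. Of 4 chemokine receptors tested 1 was lower, the Ccl6 and Ccl9 receptor Ccr1 (log2 fold change -1.87, adjusted p = 0.032). The count of 10 was 3 without WT replicate 3, 6 without DKO replicate 1, 4 without DKO replicate 3, and 5 with 1 fit over all days.

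**Figure D4:**
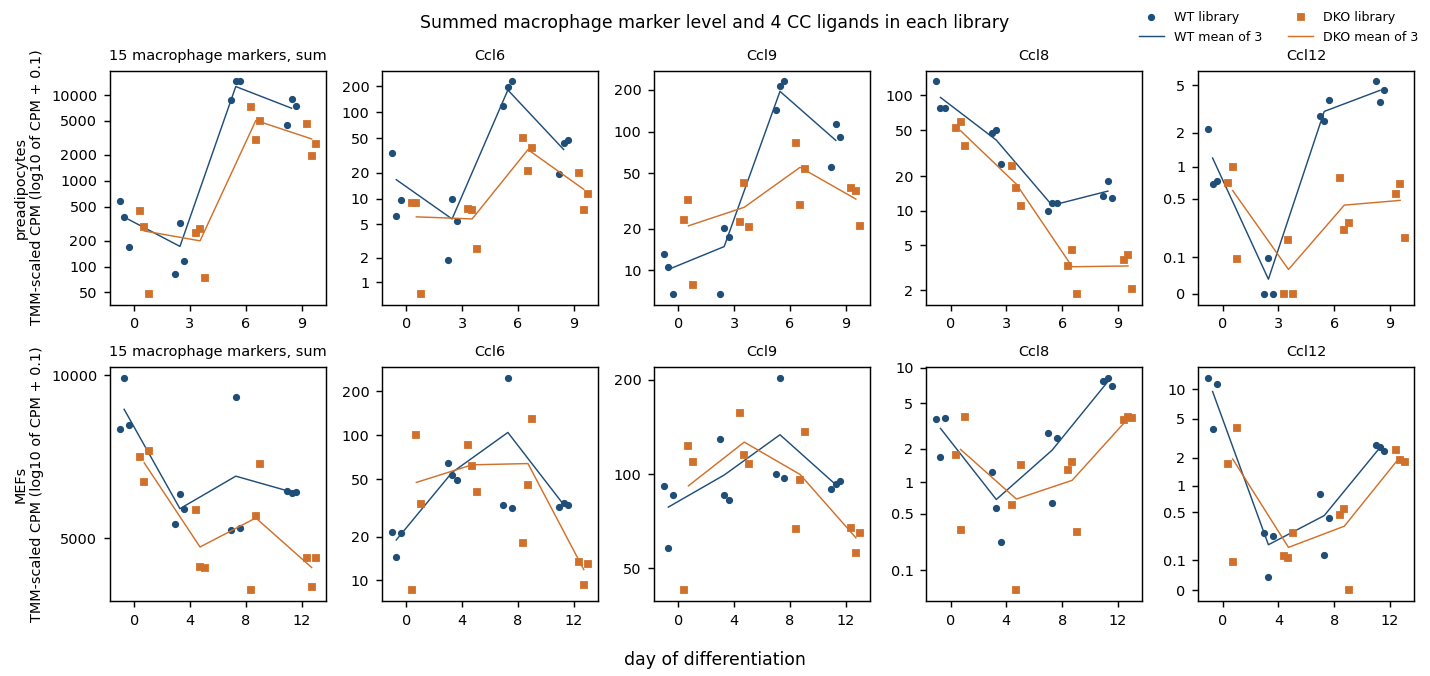
Summed level of the 15 macrophage markers, and levels of Ccl6, Ccl9, Ccl8 and Ccl12, by day, in each WT (circles) and DKO (squares) library of preadipocytes (top) and MEFs (bottom), all as TMM-scaled CPM (log10 of CPM + 0.1, each panel with its own range). In WT preadipocytes the marker sum, Ccl6 and Ccl9 are higher at day 6 than at day 3, and the DKO libraries of day 6 lie below the WT libraries in all 5 panels.

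At day 9, in brown-like adipocytes, 4 of 22 members were lower in DKO and none higher (0.776% of all genes were lower). Of the 22, 7 did not overlap between the genotypes, a share close to the 34.2% of all genes. Ccl12 was at 5.42, 3.66 and 4.59 CPM in WT and 0.564, 0.702 and 0.186 in DKO (log2 fold change -3.25 ± 0.40 with an adjusted p of 0.0207). Ccl8 was at 13.5, 18.0 and 12.99 CPM in WT and 3.69, 4.12 and 2.04 in DKO (log2 fold change -2.21 ± 0.28 with an adjusted p of 0.0226). Ccl11 was at 1.84, 1.39 and 1.27 CPM in WT and 0.154, 0.468 and 0.186 in DKO (log2 fold change -2.47 ± 0.43 with an adjusted p of 0.0427). These 3 had been called at day 6 as well. Cxcl16 was at 9.001, 10.8 and 9.88 CPM in WT and 5.03, 5.01 and 4.37 in DKO (log2 fold change -1.08 ± 0.14 with an adjusted p of 0.0226). Ccl6 and Ccl9 were not called. Ccl6 was at 19.3, 44.1 and 47.7 CPM in WT and 19.8, 7.39 and 11.3 in DKO, where WT replicate 1 lay just under DKO replicate 1. Ccl9 was at 55.7, 113 and 91.1 CPM in WT and 39.6, 37.6 and 20.95 in DKO. The macrophage markers summed to 4485 to 9080.1 CPM in WT and 1933 to 4593 in DKO. None of the 15 was called. The adipocyte markers summed to 32823 to 34053 CPM in WT and 41799 to 50901 in DKO, and the preadipocyte and fibroblast markers to 11790.5 to 12383 and 4460.4 to 12558 CPM, with none of either list called. The part of these 3 lists was not tested. The count of 4 rests on single libraries: it was 0 without any one of the WT replicates or DKO replicate 1, 2 without DKO replicate 3 and 10 without DKO replicate 2.

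**Figure D5:**
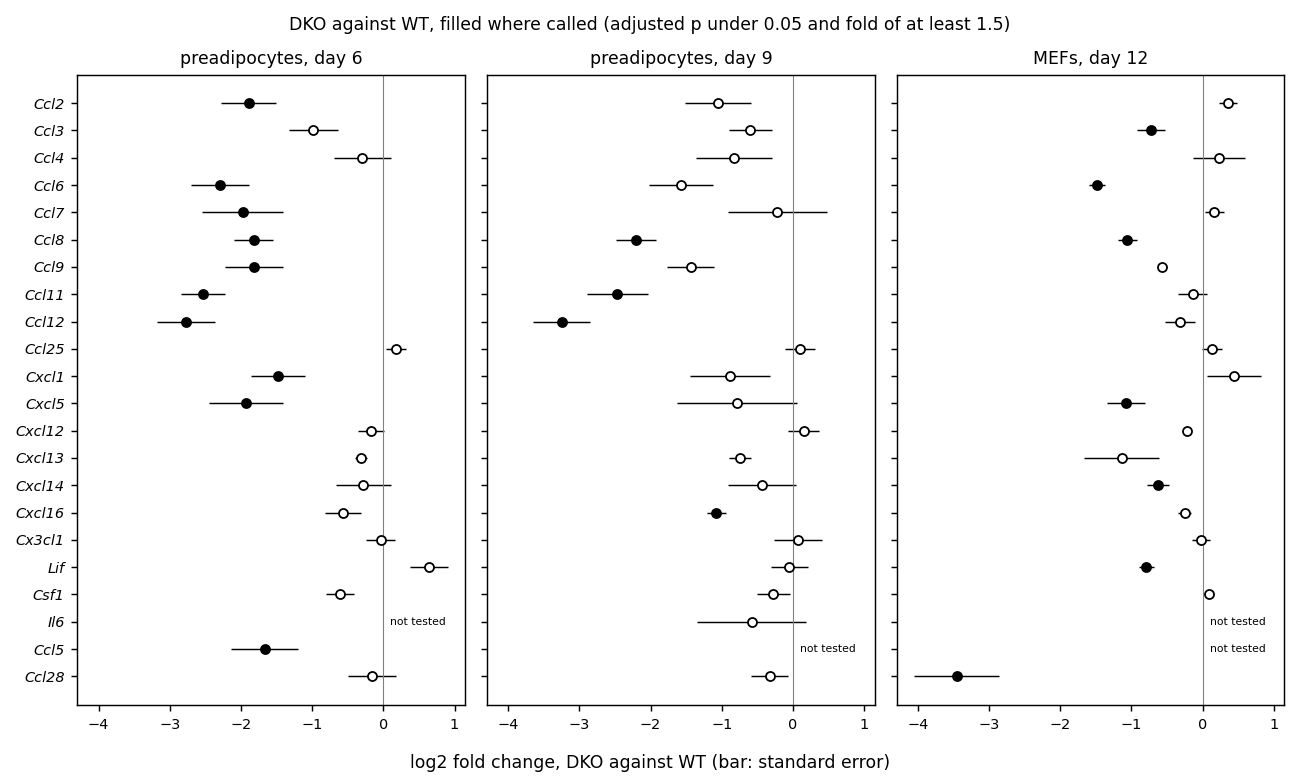
Log2 fold change of DKO against WT with its standard error (bars) for the 20 members at 5 CPM or more and for Ccl5 and Ccl28, in preadipocytes at days 6 and 9 and MEFs at day 12. Filled points were called, and each of them lies below 0, with Ccl11, Ccl12 and Ccl8 filled on both preadipocyte days and Ccl8 filled in all 3 panels.

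In MEFs no member was called on the first 3 days. At day 0 edgeR called 0 of 24 (0.102% of all genes) with 2 at an unadjusted p under 0.05. At day 4 it called 0 of 25 (0.0905%) with 6 at such a p, and at day 8 0 of 24 (0.0595%) with 2. Over all genes such a p was found for 1454 of 15671, 915 of 15475 and 1295 of 15117 at days 0, 4 and 8. DESeq2 and limma-voom called 0 on each of these days. Without the libraries that stood apart 2 members, Ccl2 and Ccl28, were called lower in DKO at day 8. The 0.0595% does not belong to that fit. Ccl2 was at 13.3, 18.3 and 15.5 CPM in WT and 7.88, 9.38 and 11.2 in DKO. Ccl28 was at 1.37, 1.10 and 1.62 CPM in WT and 0.0463, 0.25 and 1.90 in DKO. Its highest DKO library, replicate 3, was one of those left out. At day 12, when the cells were labelled adipocytes, 7 of 23 members were lower in DKO and none higher, beside 4.05% of all 15319 genes that were lower. Without the fold threshold 10 members were lower and 1 higher. The 4.05% belongs to the rule with the threshold, so these counts cannot be set against it. At an unadjusted p under 0.05 by edgeR stood 12 of the 23 members and 6480 of all 15319 genes. Of the 23, 11 did not overlap between the genotypes, a share close to the 46.8% of all genes, and the median log2 difference was -0.22, with 0.0015 for all genes.

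Ccl6 was at 32.2, 34.5 and 33.3 CPM in WT MEFs at day 12 and 13.5, 9.27 and 12.9 in DKO, a 2.80-fold difference (log2 fold change -1.48 ± 0.11 with an adjusted p of 3.55e-07). Ccl8 was at 7.68, 8.24 and 7.02 CPM in WT and 3.54, 3.77 and 3.72 in DKO (log2 fold change -1.06 ± 0.13 with an adjusted p of 1.49e-05), the member lower at days 6 and 9 in preadipocytes too. Lif was at 13.1, 15.2 and 15.1 CPM and 7.61, 9.73 and 7.88 (log2 fold change -0.79 ± 0.11 with an adjusted p of 4.73e-05). Cxcl5 was at 2.21, 1.66 and 1.93 CPM and 0.821, 1.00 and 0.907 (log2 fold change -1.08 ± 0.27 with an adjusted p of 0.00539). The stromal ligand Cxcl14 was at 7.06, 6.98 and 6.19 CPM and 4.14, 5.32 and 3.63 (log2 fold change -0.63 ± 0.15 with an adjusted p of 0.00439). The macrophage-type ligand Ccl3 was at 3.13, 3.18 and 3.94 CPM in WT and 2.16, 2.0 and 2.005 in DKO (log2 fold change -0.73 ± 0.19 with an adjusted p of 0.00852). The least abundant of the 7 was Ccl28, an epithelial ligand, at 1.10, 1.07 and 1.301 CPM in WT and 0, 0.273 and 0.0477 in DKO (log2 fold change -3.45 ± 0.60 with an adjusted p of 3.24e-04), which is under 10 counts over the 3 DKO libraries. The WT and DKO libraries overlapped for none of the 7. Ccl2, Ccl7, Ccl11 and Ccl12 were not called here: Ccl11 stood at 3.09, 2.92 and 2.68 CPM in WT and 2.42, 3.23 and 2.24 in DKO. The macrophage markers summed to 6056 to 6120.2 CPM in WT and 4059 to 4605 in DKO, with 1 of 15 called lower and a median log2 difference of -0.35, and the preadipocyte and fibroblast markers to 13838 to 14286 and 7917 to 8782 CPM, with 5 of 10 called lower. The adipocyte markers summed to 18441 to 18933 CPM in WT and 27766 to 29796 in DKO, with 7 of 10 called higher. The part of these 3 lists was not tested. Of 9 tested chemokine receptors 4 were lower, among them Cx3cr1, the receptor of Cx3cl1 (log2 fold change -0.92, adjusted p = 0.00016). With 1 fit over all 4 days of MEFs, 0 members were called at day 12. Ccl6, Ccl8 and Cxcl5, 3 of the 7, were also among the 10 called at day 6 in preadipocytes, which is 42.9% of the one list and 30.0% of the other.

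Whether the DKO effect differed between days was tested directly. In preadipocytes edgeR called 0 of 29 members for day 3 minus day 0 (0.0948% of all 16877 genes), 0 for day 6 minus day 3 (0.51%) and 0 for day 9 minus day 6 (0%), with 0, 5 and 1 at an unadjusted p under 0.05. An unadjusted p under 0.05 by edgeR was found for 1188, 2525 and 746 of all 16877 genes. Beside 97, 356 and 2 of all genes, DESeq2 called 0, 2 and 0 members. The 2, named here because DESeq2 called them, were Ccl9 (edgeR log2 fold change -2.70 ± 0.69 with an adjusted p of 0.078) and Lif (edgeR log2 fold change 1.61 ± 0.44 with an adjusted p of 0.0943). Ccl9 had been at 6.75, 20.4 and 17.5 CPM in WT and 22.4, 42.8 and 20.5 in DKO at day 3. Every DKO library lay above every WT library there, before the reverse at day 6. At day 3, 18.9% of all genes did not overlap between the genotypes. In MEFs edgeR called 0 of 26 members for each of the 3 steps (0.00588%, 0% and 0.00588% of all genes), with 5, 2 and 2 at an unadjusted p under 0.05 and 0 by DESeq2. Of all 16996 genes 1939, 542 and 831 had such a p by edgeR. Without the libraries that stood apart 2, 1 and 0 members were called, Cxcl2 and Cxcl12 in the first step and Cxcl12 in the second. The DKO effect at day 0 was not found to differ between preadipocytes and MEFs for any of 26 members (0.0844% of all genes). At an unadjusted p under 0.05 by edgeR stood 2 members and 1233 of all 16581 genes, and DESeq2 called 0 members. A member called on 1 day and not on another is therefore not shown to differ between them.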

How the data were processed

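RNA-seq was measured in 24 preadipocyte and 24 MEF libraries, with 3 labelled biological replicates in each of 16 groups; the labels say no more of how replicates were separated, so p-values measure the spread between these libraries. The labels name poly(A) RNA and the study's methods a stranded total RNA kit, read as pairs of 50 bases. Per the labels, the authors demultiplexed with bcl2fastq 2.17, trimmed with cutadapt 1.18, aligned with STAR 2.7.0f to mm10 and deposited expected counts per gene estimated with RSEM 1.3.0, which are not normalised. RSEM shares reads between near-identical genes by estimate. Depth was 18962481 to 36006679 counts per library.

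Expected counts were rounded and tested with edgeR 4.0.16 in R 4.3.3 (TMM scaling, filterByExpr, robust quasi-likelihood fit, Benjamini-Hochberg adjustment over all tested genes). DKO was compared with WT on each day from the 6 libraries of that day, adjacent days in 1 fit over the 4 days of a cell type and genotype, and differences of the DKO effect in 1 fit over a cell type. Calls needed an adjusted p below 0.05 together with a 1.5-fold change or more. With 3 libraries against 3, an exact permutation test of 1 value cannot go below p = 0.1, and none was used. The code was tested on simulated data. Alternatives were DESeq2 1.42.0, limma-voom (limma 3.58.1), library size alone, no filter, no fold threshold, a replicate block, other sets of libraries per fit, and leaving out libraries. The same replicate numbers paired the libraries (every correlation of deviations over 0.1) in 3 of 12 sets of adjacent days and in 0 of 8 WT and DKO sets. The blocked fit changed no count there by over 1.5 times.

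The members and lists were chosen with earlier results of these data known. Members with a mean of at least 5 CPM in a group were named with their values in each library, those under 5 CPM where called, and at most 10 called members per comparison, those with the smallest p, were given a fold change. From the fixed lists (chemokine receptors, partners of Il6, Lif and Csf1, NF-kappaB genes, glucocorticoid receptor targets, interferon-stimulated genes and cell markers) counts and at most 4 genes per comparison were named. All 55450 gene identifiers matched GENCODE release M21. Promoter windows are RefSeq's, and that of Cx3cl1 was not printed because it overlapped an annotated transcript.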

Additional observations from a re-analysis of the deposited data

Results flagged for a closer look

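A search of the members at 5 CPM or more found Ccl9, Cxcl16 and Ccl25. Their DKO libraries all lay above every WT library on one day and all below on another. None of the DKO against WT fold changes given below was called. Of all tested genes, 18.9% and 34.2% did not overlap between the genotypes in preadipocytes at days 3 and 9. In MEFs the shares were 18.4%, 11.6%, 15.5% and 46.8% at days 0, 4, 8 and 12. None of these differences between non-adjacent days was tested. Ccl9 in preadipocytes had a log2 fold change of DKO against WT of 0.92 at day 3 and -1.44 at day 9. For the step from day 3 to day 6 the difference was tested and was not called (edgeR's quasi-likelihood test, adjusted p = 0.078). Cxcl16 in MEFs had a log2 fold change of 0.16 at day 4 and -0.25 at day 12, and Ccl25 in MEFs of 0.67 at day 0 and -0.27 at day 8. The MEF values include libraries that stood apart from their groups.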

How the results depend on the processing

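Of 175 fold changes of members, each recomputed under the alternatives, 1885 of 2147 values kept their direction and their side of the threshold, 259 kept the direction and lost the call, 3 gained one and 0 reversed. The counts of called members moved more. With DESeq2 in place of edgeR, the count for DKO against WT preadipocytes went from 0 to 3 at day 0, from 0 to 1 at day 3 and from 4 to 7 at day 9; for day 9 against day 6 in DKO preadipocytes from 3 to 6, for day 8 against day 4 in WT MEFs from 1 to 7, for day 12 against day 8 in DKO MEFs from 7 to 11, and for the difference of the DKO effect between days 6 and 3 from 0 to 2. With 1 fit over all days, DKO against WT gave 1 at day 3 and 5 (from 10) at day 6 in preadipocytes, and 0 (from 7) at day 12 in MEFs, where no fold threshold gave 11. For day 8 against day 4 in WT MEFs, library size alone gave 5, no filter on low counts 2, and only the libraries of both days 0. Only the libraries of both days gave 10 (from 17) for day 3 against day 0 in WT preadipocytes and 6 (from 3) for day 9 against day 6 in DKO preadipocytes. Calls over all genes moved too. For DKO against WT preadipocytes at days 0, 3 and 9, edgeR called 33, 51 and 183 of all genes. DESeq2 called 145, 408 and 827. The cause of these shifts was not tested. An alternative chosen after seeing the data left out the 4 MEF libraries that stood apart: DKO against WT gave 2 at day 8, day 8 against day 4 gave 15 in WT and 2 in DKO, and the difference of the DKO effect gave 2 for day 4 minus day 0 and 1 for day 8 minus day 4. The replicate block, with numbers that do not pair WT with DKO libraries, gave 1 at day 3, 5 at day 6 and 1 at day 9 for DKO against WT preadipocytes, and changed no other count by over 1.5 times.

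Leaving out each library in turn gave 3 to 11 called members for DKO against WT preadipocytes at day 6, 0 to 10 at day 9, and 6 to 9 for MEFs at day 12. In WT preadipocytes it gave 13 to 17, 23 to 25 and 6 to 9 for the 3 steps between days, and in DKO preadipocytes 5 to 9, 20 to 25 and 2 to 3. In WT MEFs it gave 13 to 15, 0 to 12 and 8 to 12, and in DKO MEFs 8 to 12, 0 to 0 and 4 to 7. The difference of the DKO effect gave 0 to 2 for day 6 minus day 3 in preadipocytes (2 without WT day 3 replicate 3) and 0 to 3 for day 4 minus day 0 in MEFs (3 without DKO day 0 replicate 1). WT preadipocytes against WT MEFs gave 15 to 18, and the remaining comparisons 0 to 0. Members under about 1 CPM rest on a few counts per library at this depth, so that differences between them may be missed.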
